A study of Mus musculus with 14 samples.

Results

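Immediate early genes are the transcripts that cells make within minutes of a stimulus, from transcription factors already present. The genes described here were Fos, Fosb, Jun, Junb, Egr1, Egr2, Egr3, Atf3, Ier2 and Nr4a1. They are 10 of the 17097 genes measured on the arrays and were read on 12 probe sets in all. These genes and the gene lists set beside them below were chosen by name, with earlier results of these data known. Counts within them are therefore descriptions. Each gene was represented by its probe set with the highest mean over the 14 arrays, a choice that mattered for Egr2 and Jun, which have a pair of probe sets each.

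FOS and JUN proteins pair to form the transcription factor AP-1, while EGR proteins are zinc finger factors and NR4A proteins are orphan nuclear receptors. In skin such genes respond to growth factors, wounding and ultraviolet light, and they are also well known to be induced when a tissue is taken apart into single cells. Growth factor and stress signals reach them largely through the kinases that activate the serum response factor SRF and the factor CREB, which wait on the promoters.

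The arrays held epidermal cells of mice aged 15 weeks with homeostatic skin. Bulge cells, from the part of the hair follicle that houses its stem cells, came from G9a cKO mice (n = 4 arrays) and G9a WT mice (n = 3). Cells of the interfollicular epidermis (IFE), the skin surface between follicles, likewise came from G9a cKO (n = 4) and G9a WT mice (n = 3). G9a, the product of Ehmt2, methylates histone H3 at lysine 9; cKO denotes its conditional knockout. The Cre driver of the knockout, the way bulge and IFE cells were separated, the handling time of the cells and whether replicates were separate animals were not given in the sources used here. The p-values therefore measure only the spread between these samples, which may be technical.

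Values are log2 signals, so a difference of 1 is a doubling. With arrays, precision rests on how many there are. As a check of the labels, one probe set of Ehmt2 read 5.85 to 6.02 in bulge cKO against 9.51 to 9.69 in bulge WT, and 5.95 to 6.09 in IFE cKO against 9.59 to 9.78 in IFE WT. A second Ehmt2 probe set read 7.84 to 8.05 on all arrays and did not part the groups. The mean of 10 bulge markers was 9.29 to 10.34 in bulge cKO and 10.39 to 10.65 in bulge WT, against 7.08 to 7.68 in IFE cKO and 7.08 to 7.13 in IFE WT. Bulge cKO replicates 2 and 3 stood apart from the other bulge arrays, with the lowest bulge marker means (9.29 and 9.47). IFE cKO replicates 2 and 3 stood apart too, with the highest bulge marker means of the IFE (7.66 and 7.68). IFE cKO replicates 1 and 4 read 7.09 and 7.08. For the immediate early genes another array stood apart, bulge WT replicate 1, so the results below are also given without these arrays where that moves them.

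The promoters of the genes on which the results turn were searched for the letters of elements through which such signals can act. Of the 10 genes, 7 were matched by symbol in a RefSeq promoter table (build GRCm38.p6), and the 250 bases before each listed start were searched on both strands. The motifs were the CArG box, the binding sequence of SRF, the short core TGACG of the CREB element, and the AP-1 sequence TGACTCA. Capitals below mark the matches to the CArG box and to this CREB core, and in these windows no match overlapped another. Fos, an AP-1 gene that passed no test with all arrays, is set beside Egr2 and Nr4a1. The first sequence is chr10:67537619-67537868, plus strand, before one of the 5 starts listed for Egr2. The second is chr15:101266596-101266845 and the third chr12:85473640-85473889, both also on the plus strand.
Egr2: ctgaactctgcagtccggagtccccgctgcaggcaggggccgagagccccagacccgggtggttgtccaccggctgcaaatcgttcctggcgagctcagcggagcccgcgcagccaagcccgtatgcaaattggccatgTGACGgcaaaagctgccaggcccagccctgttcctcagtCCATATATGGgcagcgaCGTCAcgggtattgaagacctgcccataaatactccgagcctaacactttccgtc
Nr4a1: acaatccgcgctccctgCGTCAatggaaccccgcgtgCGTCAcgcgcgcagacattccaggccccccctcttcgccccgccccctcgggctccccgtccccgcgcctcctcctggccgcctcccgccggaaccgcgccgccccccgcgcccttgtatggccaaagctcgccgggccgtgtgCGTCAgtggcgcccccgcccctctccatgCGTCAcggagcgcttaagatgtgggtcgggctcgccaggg
Fos: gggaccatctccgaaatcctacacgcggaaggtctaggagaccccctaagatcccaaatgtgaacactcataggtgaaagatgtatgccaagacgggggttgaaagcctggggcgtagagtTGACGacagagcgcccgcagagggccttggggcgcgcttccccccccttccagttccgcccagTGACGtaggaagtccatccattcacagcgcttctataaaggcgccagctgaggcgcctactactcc

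The Egr2 window held a CArG box 72 to 63 bases before the start, flanked by CREB cores at 111 to 107 and at 55 to 51 bases. A CArG box is found in 1.47% of the 32851 promoter windows of the table, and among the 7 genes only Egr2 had one. The Nr4a1 window held 4 CREB cores and the Fos window 2. At least 1 CREB core is found in 17.8% of all windows, and 6 of the 7 genes had one, all but Jun. The AP-1 sequence, present in 4.46% of windows, was found in none of the 7. A match describes letters only, and no match means only that those letters are not in this window.

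In bulge cells, Egr2 was the gene of the 10 that rose in cKO, by 2.06-fold. Its paralogues Egr1 and Egr3 and the AP-1 genes had estimates above 0 that did not pass the test. Nr4a1 lay just short of the threshold with a 1.79-fold difference. Tests were limma's moderated tests over all genes with a Benjamini-Hochberg adjusted p under 0.05. By that rule 1 of the 10 genes was called, against 3.84% of all genes in either direction and 1.98% in the higher direction. All 10 estimates were positive, with a median log2 difference of 0.22 against 0.01 over all genes. In bulk samples, fewer cells of a type and less RNA per cell cannot be told apart.

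Egr2, a factor best known for its part in peripheral nerve myelination and in limiting T cell activation, read 9.46, 9.79, 9.85 and 9.27 in bulge cKO. In bulge WT it read 7.90, 8.84 and 8.91. All cKO arrays lay above all WT arrays. The means were 9.59 ± 0.27 in bulge cKO and 8.55 ± 0.56 in bulge WT (SD, n = 4 and 3). The log2 difference was 1.05 (SE 0.22, 95% confidence interval 0.57 to 1.52, limma adjusted p = 0.0257). The second Egr2 probe set gave the same order of groups, with 8.82, 9.30, 9.31 and 8.61 in bulge cKO and 7.16, 8.01 and 8.19 in bulge WT. Tested among all probe sets, it differed by 1.22 on the log2 scale (limma adjusted p = 0.0174).

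The Egr2 call depended on single arrays, although the estimate kept its sign. Leaving out bulge WT replicate 1 lowered the log2 difference to 0.72 (adjusted p = 0.0629). The call was also lost without bulge cKO replicate 2 (0.98, adjusted p = 0.0776), bulge cKO replicate 3 (0.96, adjusted p = 0.0817) or bulge WT replicate 2 (1.19, adjusted p = 0.0513). Without cKO replicates 2 and 3 of both compartments the difference was 0.82 (adjusted p = 0.387), and in a model of the bulge arrays alone it was 1.05 (adjusted p = 0.140).

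Nr4a1, an orphan nuclear receptor that is induced by many stimuli, read 10.16, 10.07, 9.99 and 9.78 in bulge cKO. It read 8.44, 9.33 and 9.71 in bulge WT. The groups did not overlap, and the highest WT array was within 0.1 of the lowest cKO array. The log2 difference was 0.84 (SE 0.23, 95% confidence interval 0.35 to 1.33, limma adjusted p = 0.0576). Without bulge WT replicate 1 it was 0.48 (adjusted p = 0.149). The threshold was passed without bulge WT replicate 3 (1.11, adjusted p = 0.0186) or bulge cKO replicate 4 (0.91, adjusted p = 0.0334). Egr2 and Nr4a1 were the 2 of 10 genes whose bulge cKO arrays all lay above the WT arrays, against 10.5% of all genes.

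Among the AP-1 genes, Fos read 12.27, 12.21, 12.19 and 12.15 in bulge cKO and 11.72, 12.06 and 12.22 in bulge WT. The highest Fos value in WT lay inside the cKO range, and the log2 difference was 0.21 (limma adjusted p = 0.247). Fosb read 12.39, 12.36, 12.37 and 12.24 in bulge cKO and 11.76, 12.31 and 12.31 in bulge WT. Its groups overlapped too, with a difference of 0.22 (adjusted p = 0.265).

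Jun, which encodes one of the JUN family partners of FOS proteins, read 11.20, 11.07, 11.08 and 11.03 in bulge cKO and 10.40, 11.19 and 11.22 in bulge WT. WT replicates 2 and 3 lay among or above the cKO arrays. The difference was 0.16, with a 95% confidence interval of -0.26 to 0.57 (adjusted p = 0.624). Junb, which in skin restrains inflammation and can oppose JUN, read 9.88, 9.46, 9.39 and 9.60 in bulge cKO and 8.35, 9.27 and 9.56 in bulge WT. WT replicate 3 fell within the cKO range, and the difference was 0.52 (adjusted p = 0.203). Atf3, a stress-induced repressor that pairs with JUN proteins, read 12.36, 12.22, 12.23 and 12.15 in bulge cKO and 11.48, 12.10 and 12.16 in bulge WT. Only the upper WT array reached the cKO range, and the difference was 0.33 (adjusted p = 0.154).

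Egr1, the first responder of the EGR family, read 12.24, 12.11, 12.09 and 12.12 in bulge cKO and 11.55, 12.07 and 12.18 in bulge WT, with a difference of 0.21 (limma adjusted p = 0.387). Egr3 ranged from 7.75 to 7.99 in bulge cKO and from 7.67 to 7.84 in bulge WT, with a difference of 0.13 (adjusted p = 0.295). Ier2, a small nuclear protein of the early response, read 7.95, 7.83, 7.86 and 8.15 in bulge cKO and 7.21, 8.09 and 7.88 in bulge WT. The groups of these 3 genes overlapped, and the Ier2 difference was 0.22 (adjusted p = 0.523).

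**Figure D1:**
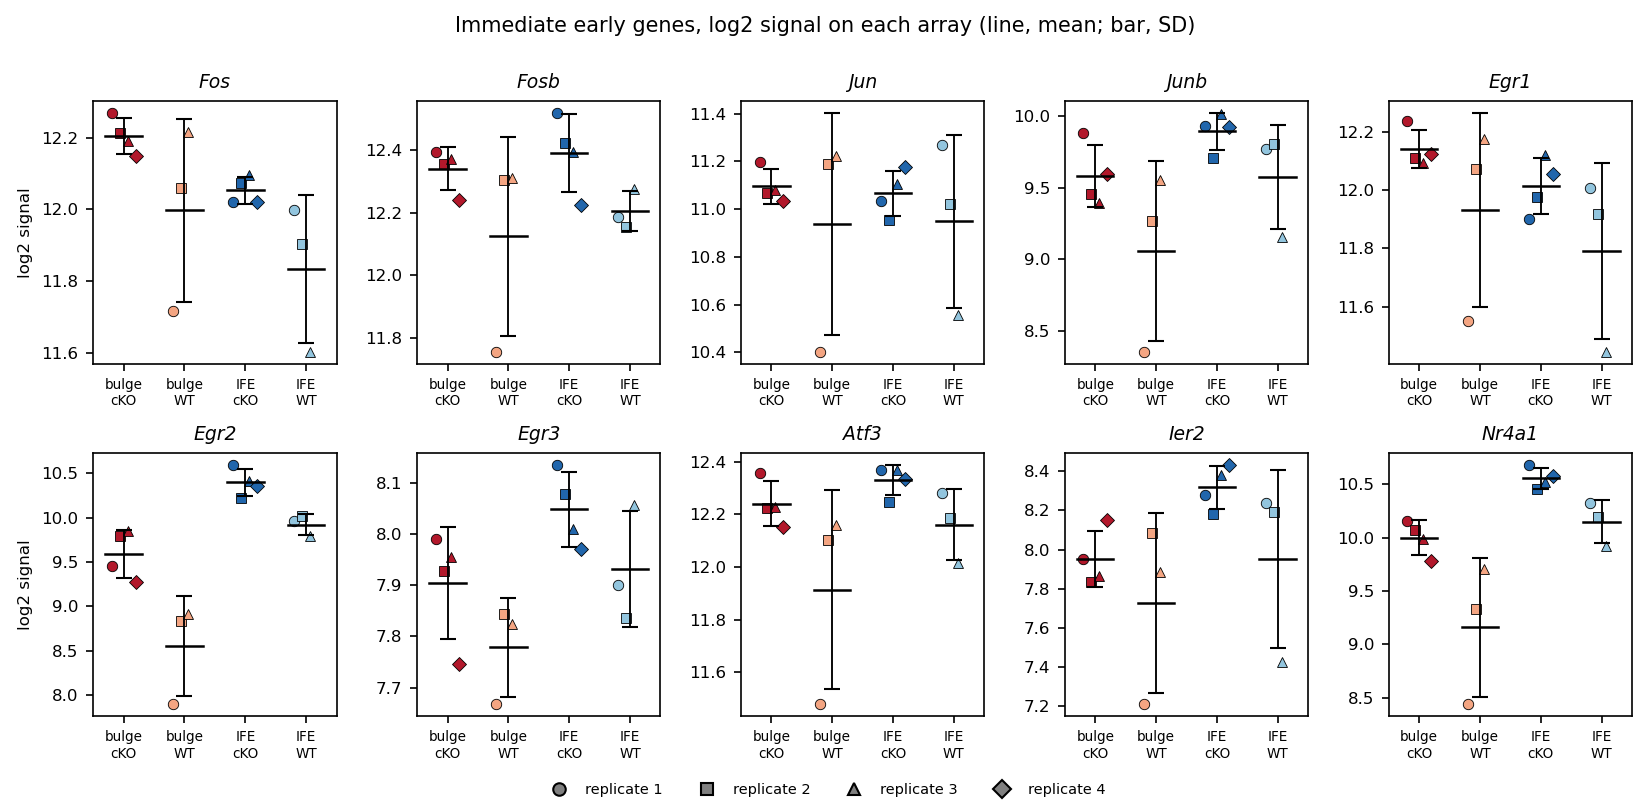
Log2 signal of each of the 10 genes on each array, by group, with the mean (line) and SD (bar) of 4 cKO or 3 WT arrays; each panel has its own vertical scale. In bulge WT the circle of replicate 1 is the lowest point of its group in every panel, and only Egr2 and Nr4a1 have all bulge cKO points above all bulge WT points.

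Bulge WT replicate 1 was the lowest array of its group for all 10 genes. The mean of the 10 genes was 10.59, 10.51, 10.50 and 10.42 on the bulge cKO arrays and 9.65, 10.31 and 10.40 on the bulge WT arrays. The first WT array thus lay 0.47 below its group mean. Over all genes its root mean square deviation from the group mean was 0.115, slightly above the 0.102 and 0.113 of WT replicates 2 and 3. Over the 10 genes the same quantity was 0.505, against 0.211 and 0.315.

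Without that array, the median log2 difference of the 10 genes in bulge fell to 0.07, and 8 of the 10 estimates stayed above 0. Jun (-0.11) and Ier2 (-0.03) then lay below 0, and none of the 10 was called, against 116 of all genes (0.678%). Each WT array can also be set against the lowest cKO array. Replicate 1 lay below it for 10 of the 10 genes (28.3% of all genes), replicate 2 for 6 (31.8%) and replicate 3 for 2 (20.3%).

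Other early response genes and heat shock genes read low on the same array. The mean of 29 further early response genes was 8.70 to 8.91 on the bulge cKO arrays and 8.11, 8.52 and 8.73 on bulge WT replicates 1, 2 and 3. The mean of 11 heat shock genes, which report protein damage, was 9.73 to 10.02 in bulge cKO and 9.52, 9.88 and 9.84 in bulge WT. Of these 11 genes none was called in bulge cKO against WT. In the IFE a milder shift of the 10 genes was seen on WT replicate 3. It was the lowest of its group in 8 of the 10 and 0.22 below its group mean. Over all genes its root mean square deviation was 0.185, against 0.118 and 0.127 on IFE WT replicates 1 and 2. On IFE WT replicate 3 the mean of the 29 early response genes was 9.18, against 9.28 and 9.21 on replicates 1 and 2. The heat shock mean was 9.94, against 9.97 and 10.00.

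**Figure D2:**
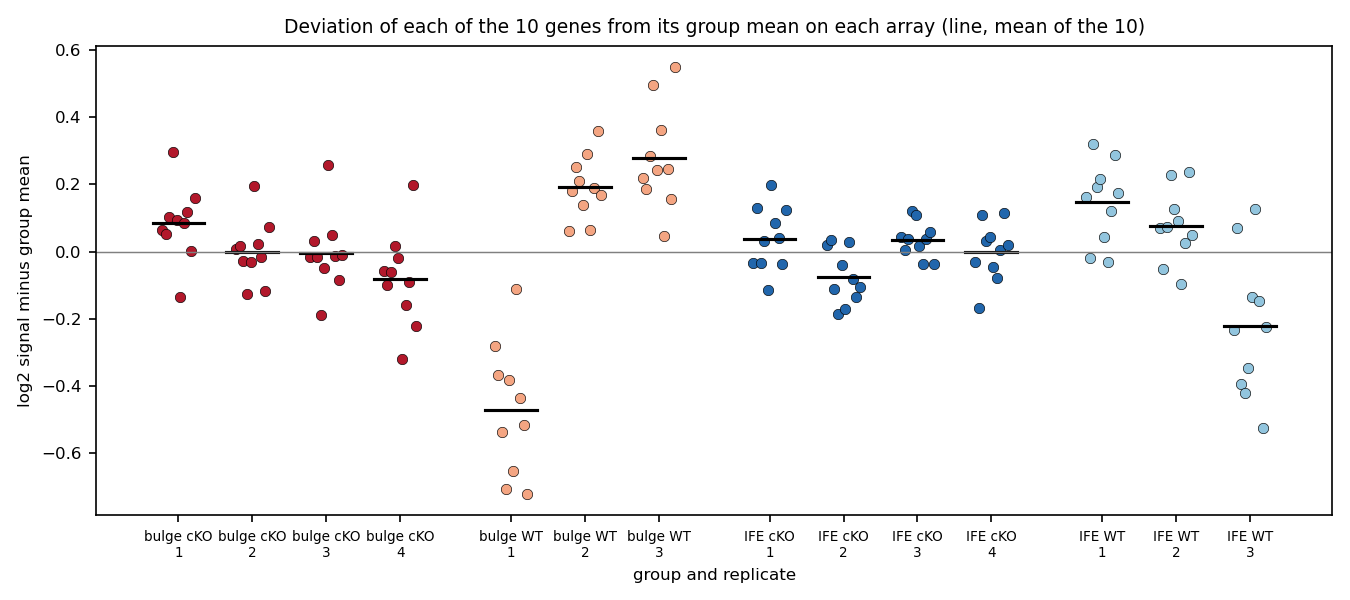
Deviation of each of the 10 genes from its own group mean (log2 units, vertical axis) on each of the 14 arrays (horizontal axis, group and replicate), with the mean of the 10 as a line. Bulge WT replicate 1 lies lowest with a mean of -0.47, and IFE WT replicate 3 follows with -0.22.

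With all arrays, most of the 10 genes had a larger SD in WT than in cKO, and this rested on the single low WT array of each compartment. In bulge cells 9 of the 10 had a smaller SD in cKO, against 32.5% of all genes, and their median SD was 0.097 in cKO and 0.417 in WT. Without bulge WT replicate 1, 3 of the 10 had the smaller SD in cKO, against 29.4% of all genes, and the median SD in WT was 0.062. In the IFE 8 of the 10 had a smaller SD in cKO, against 56.3% of all genes, with median SDs of 0.097 in cKO and 0.204 in WT. Without IFE WT replicate 3, 3 of the 10 had it, against 29.3% of all genes, and the median SD in WT was 0.054. Leaving out WT arrays here was chosen after seeing the data, and the SDs were not tested.

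In the IFE none of the 10 genes passed the test, and with all arrays the 10 estimates were again above 0. Without IFE WT replicate 3, 9 of the 10 were above 0 and Jun was at -0.08; with array weights Jun was at -0.04. The call rate was low throughout: 85 of all genes (0.497%) passed limma's adjusted threshold, and 1876 genes (11%) had an unadjusted p under 0.05. The median log2 difference of the 10 genes was 0.22, against -0.01 over all genes, and it was 0.11 without IFE WT replicate 3. Their adjusted p-values ran from 0.452 to 0.893. For 3 of the 10, all cKO arrays lay above all WT arrays, against 5.01% of all genes.

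These were Egr2, Nr4a1 and Fos. Egr2 read 10.60, 10.23, 10.42 and 10.35 in IFE cKO and 9.97, 10.01 and 9.79 in IFE WT, with a log2 difference of 0.48 (95% confidence interval 0.00 to 0.95, limma adjusted p = 0.452). Nr4a1 read 10.68, 10.45, 10.52 and 10.58 in IFE cKO and 10.32, 10.20 and 9.93 in IFE WT. Its lowest cKO array lay above its highest WT array, and the difference was 0.41 (adjusted p = 0.557). Fos read 12.02, 12.07, 12.10 and 12.02 in IFE cKO and 12.00, 11.90 and 11.60 in IFE WT, so the groups were parted by a narrow gap. Its difference was 0.22 (adjusted p = 0.498).

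The other AP-1 genes overlapped in the IFE. Fosb read 12.52, 12.42, 12.39 and 12.22 in IFE cKO and 12.19, 12.15 and 12.28 in IFE WT. Jun read 11.03, 10.96, 11.10 and 11.18 in IFE cKO and 11.27, 11.02 and 10.56 in IFE WT. For Jun the highest and the lowest array of the IFE were both WT. Junb read 9.93, 9.71, 10.02 and 9.93 in IFE cKO and 9.77, 9.80 and 9.16 in IFE WT, and Atf3 read 12.37, 12.25, 12.37 and 12.33 in IFE cKO and 12.28, 12.19 and 12.02 in IFE WT. In both, WT replicate 3 was the low array and a higher WT array reached the cKO range.

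Egr1 read 11.90, 11.98, 12.12 and 12.06 in IFE cKO and 12.01, 11.92 and 11.44 in IFE WT. Ier2 read 8.28, 8.18, 8.38 and 8.43 in IFE cKO and 8.24, 8.19 and 7.43 in IFE WT. Both again had WT replicate 3 as their lowest array. Egr3 ranged from 7.97 to 8.14 in IFE cKO and from 7.84 to 8.06 in IFE WT, and there WT replicate 3 was the highest WT array.

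For none of the 10 genes did the effect of the knockout in bulge cells differ from that in the IFE past the threshold. The test of the difference of effects (bulge minus IFE) called none of the 10 and 18 of all genes (0.105%), with 2404 genes (14.1%) at an unadjusted p under 0.05. For Egr2 the difference of effects was 0.57 on the log2 scale, with a 95% confidence interval of -0.10 to 1.24 (limma adjusted p = 0.418). For Nr4a1 it was 0.43, with an interval of -0.26 to 1.12 (adjusted p = 0.552). For the other 8 genes it lay between -0.14 and 0.20. Without bulge WT replicate 1 the difference of effects was 0.24 for Egr2 (adjusted p = 0.696) and 0.07 for Nr4a1 (adjusted p = 0.904). The median of the 10 was then -0.15, against 0.03 with all arrays, and 2 of the 10 stayed above 0.

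**Figure D3:**
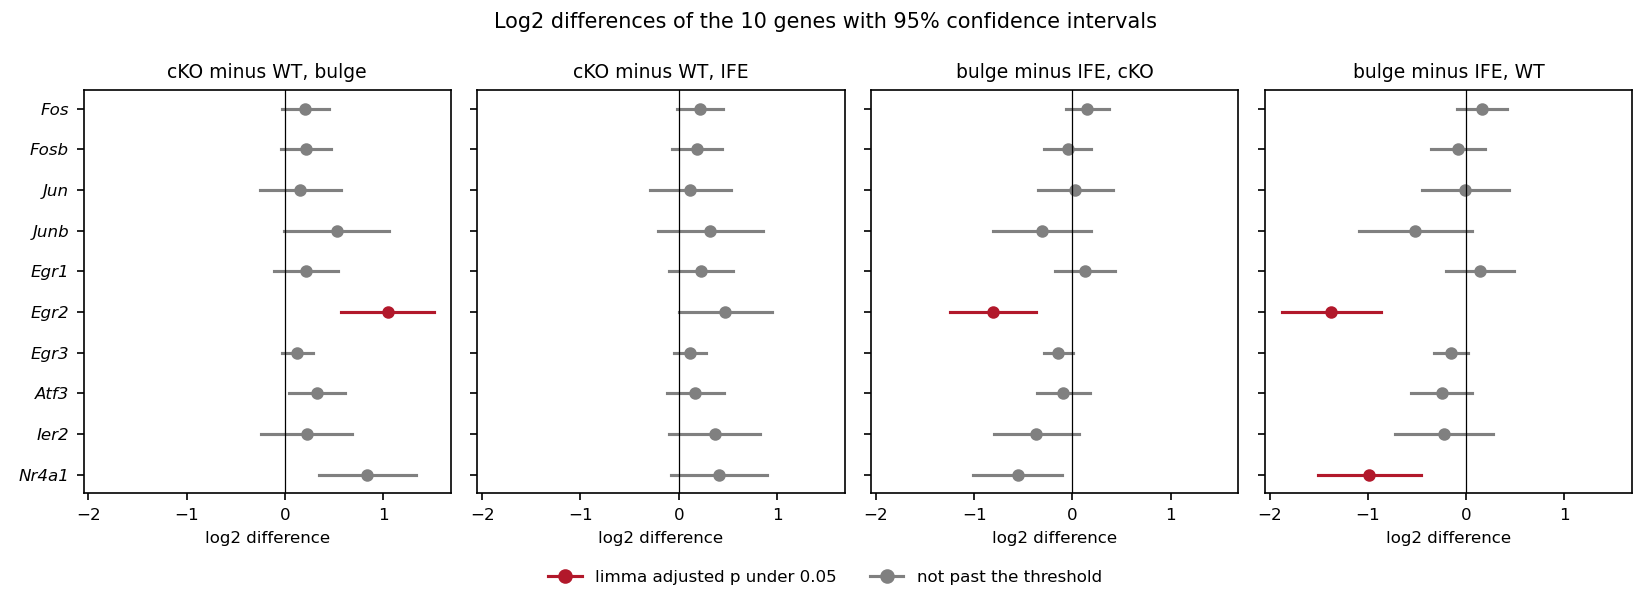
Log2 differences of the 10 genes (horizontal axis) with 95% confidence intervals in the comparisons of cKO with WT and of bulge with IFE; red marks a limma adjusted p under 0.05. Egr2 is red in 3 panels and Nr4a1 in 1, and all estimates of cKO minus WT from all arrays lie right of 0.

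Between the compartments, Egr2 and Nr4a1 were lower in bulge than in IFE cells. In WT mice Egr2 was 2.59-fold lower in the bulge, with a log2 difference of -1.38 (SE 0.23, 95% confidence interval -1.88 to -0.87, limma adjusted p = 0.000658). Nr4a1 was 1.98-fold lower, with a log2 difference of -0.99 (SE 0.24, 95% confidence interval -1.51 to -0.46, adjusted p = 0.00666). For both genes each bulge WT array lay below each IFE WT array in the values given above, as it did for 23.7% of all genes. The compartments differ widely, so these 2 of 10 calls stand against 35.1% of all genes in either direction and 16.6% in the lower direction. Both calls were kept without bulge WT replicate 1, with log2 differences of -1.05 for Egr2 and -0.63 for Nr4a1, and adjusted p-values of at most 0.0281 when any WT array was left out. With only the WT arrays in the model Nr4a1 missed the threshold (adjusted p = 0.0605) and Egr2 passed it (adjusted p = 0.0107). The mean of the differentiation markers was 6.78 to 7.23 in bulge WT against 8.34 to 8.94 in IFE WT, and that of the T cell markers 5.36 to 5.64 against 5.96 to 6.30. Their part in these differences was not tested.

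The other 8 genes had log2 differences between -0.52 (Junb, adjusted p = 0.153) and 0.16 (Fos, adjusted p = 0.313) in WT. The median of the 10 was -0.19, against -0.01 over all genes. Without bulge WT replicate 1 the median was 0.00, and Fos was then called higher in the bulge (0.30, adjusted p = 0.0376). Without bulge WT replicate 3, Junb was called lower (-0.76, adjusted p = 0.0437).

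In cKO mice Egr2 was again lower in bulge than in IFE cells, by 1.75-fold, its log2 difference being -0.81 (SE 0.20; limma adjusted p = 0.00972). It was the 1 of 10 genes called, against 32.1% of all genes in either direction and 14.6% in the lower direction. Nr4a1 differed by -0.56 without passing the test (adjusted p = 0.0591). Ier2 differed by -0.37 (adjusted p = 0.177). Egr2, Nr4a1 and Ier2 had all bulge cKO arrays below all IFE cKO arrays, against 15% of all genes. Fos had all bulge cKO arrays above all IFE cKO arrays, by a difference of 0.15 (adjusted p = 0.270), against 17.9% of all genes.

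The order of the Egr2 group means, from low to high, was bulge WT, bulge cKO, IFE WT and IFE cKO (8.55, 9.59, 9.92 and 10.40). Nr4a1 kept the same order (9.16, 10.00, 10.15 and 10.56). The neighbours in the middle, bulge cKO and IFE WT, overlapped for both genes. For Egr2 bulge cKO reached 9.85 and IFE WT began at 9.79, and for Nr4a1 these ends were 10.16 and 9.93.

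Markers of other cells and layers were higher on some of the bulge cKO arrays. The share of all genes called higher in bulge cKO was 1.98%. The mean of 10 differentiation markers was 7.27, 8.90, 8.66 and 8.15 in bulge cKO replicates 1 to 4 and 6.78 to 7.23 in bulge WT, and 3 of the 10 were called higher. The mean of 9 Langerhans cell markers was 7.13, 7.69, 7.55 and 7.36 in bulge cKO and 6.74 to 6.89 in bulge WT, with 4 of the 9 called higher. The mean of 6 T cell markers was 5.66, 6.68, 6.78 and 6.33 in bulge cKO and 5.36 to 5.64 in bulge WT, with none called. For 7 fibroblast markers the mean was 5.26, 6.02, 5.70 and 5.37 in bulge cKO and 5.06 to 5.33 in bulge WT, also with none called. Replicates 2 and 3 had the highest of these means and also the highest Egr2 values, while the lowest of these means were on replicate 1 and the lowest Egr2 value on replicate 4. The part of such cells in the Egr2 difference was not tested, and the difference without these replicates is the 0.82 given above.

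**Figure D4:**
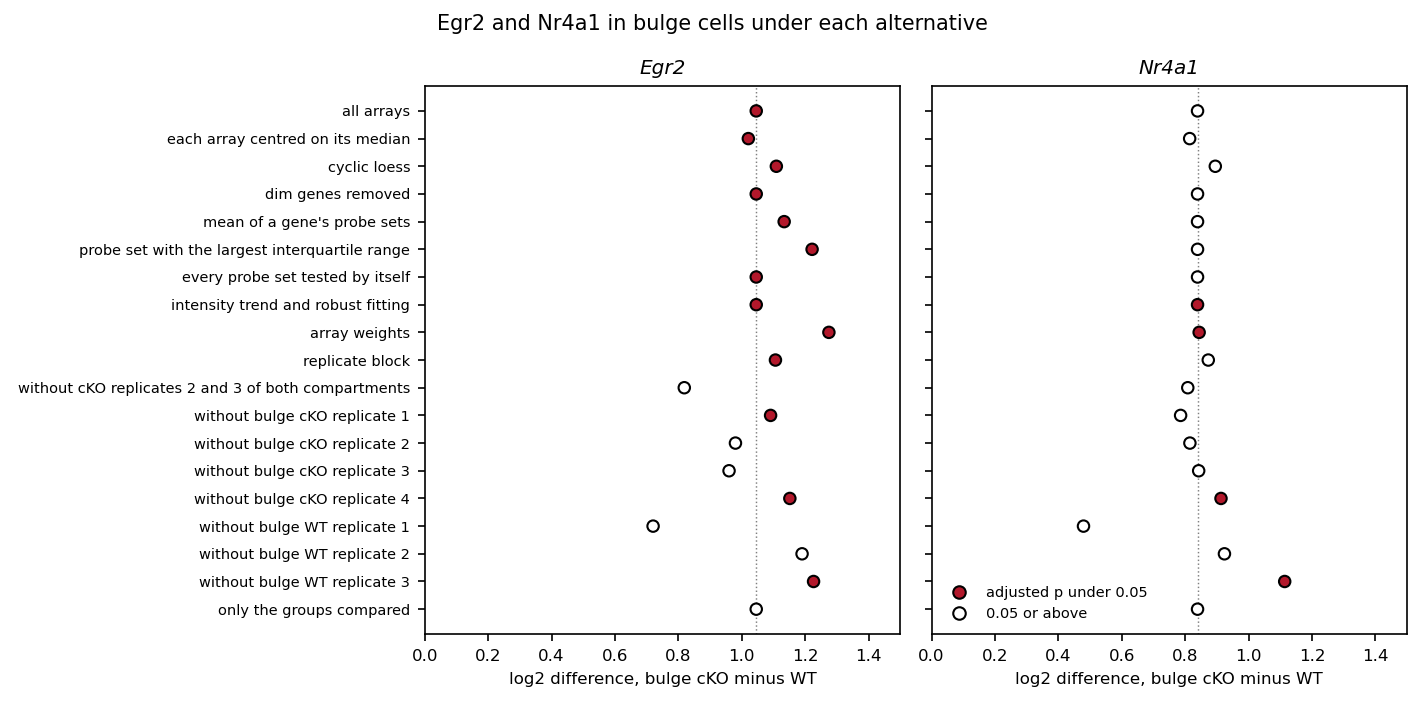
Log2 difference of Egr2 and Nr4a1 in bulge cells, cKO minus WT (horizontal axis), under each alternative (vertical axis), filled where the adjusted p is under 0.05 and with the all-array value as a dotted line. The estimates stay above 0 throughout, from 0.72 to 1.27 for Egr2 and from 0.48 to 1.11 for Nr4a1, while the calls come and go.

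The 10 genes varied by unequal amounts between arrays of a group. The pooled SD within groups was 0.35 for Junb, 0.32 for Nr4a1, 0.31 for Egr2, 0.30 for Ier2 and 0.27 for Jun, against a median of 0.108 over all genes. It was 0.21 for Egr1, 0.19 for Atf3, 0.16 for Fosb, 0.15 for Fos and 0.10 for Egr3. Fos, Fosb, Egr1 and Atf3 read between 11.44 and 12.52 on all arrays, while the brightest probe set of an array read 13.02 to 13.09. Whether signals so near the top understate a difference was not tested.

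With group means taken off, most of the genes moved together from array to array. Over the 14 arrays, the Pearson correlation of a gene's deviation with the mean of the other 9 ran from 0.23 for Egr3 to 0.99 for Atf3. Leaving out bulge WT replicate 1 lowered it unequally. Without that array the correlation was 0.94 for Atf3 but 0.28 for Egr2, -0.17 for Fosb and -0.31 for Egr3. Deviations of an array share its cells, its RNA and its scaling, so these values are descriptions.

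Among the 8538 other genes above the median signal, Jund, the constantly expressed member of the JUN family, had the deviations most like their mean (r = 0.95 over 14 arrays, 0.79 without bulge WT replicate 1). Next came Dusp1, a phosphatase that switches off stress kinases (0.93 and 0.77), Klf4, a keratinocyte differentiation factor (0.90 and 0.58), and Rhob, a small GTPase (0.90 and 0.90). The nuclear receptor Nr4a2 followed with 0.89 and 0.57, and then Hmg20b (0.89 and 0.71), Sertad1 (0.87 and 0.69) and Chka, a choline kinase (0.86 and 0.64). Most like Fos alone were Rhob (0.94 and 0.90), Dusp1 (0.93 and 0.87) and the kinase Clk3 (0.92 and 0.95). Jund itself read 11.37 to 11.51 in bulge cKO and 11.06, 11.53 and 11.54 in bulge WT, with a log2 difference of 0.05 (limma adjusted p = 0.795).

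Of 29 further early response genes, 5 rose in bulge cKO and none fell, with a list median of 0.32 on the log2 scale. Among all genes 1.98% were called higher and 1.85% lower, with a median of 0.01. Nr4a3, a paralogue of Nr4a1, read 8.45, 8.81, 8.55 and 8.15 in bulge cKO and 6.86, 7.31 and 7.61 in bulge WT. No cKO array overlapped a WT array, and the log2 difference was 1.24 (SE 0.17, limma adjusted p = 0.00326). Its call was kept when any single bulge array was left out (adjusted p from 0.00195 to 0.0180), and lost without cKO replicates 2 and 3 of both compartments (1.05, adjusted p = 0.101) and in a model of the bulge arrays alone (adjusted p = 0.0746). The third paralogue, Nr4a2, read 8.44, 8.53, 8.31 and 8.25 in bulge cKO and 7.45, 7.97 and 8.09 in bulge WT, a difference of 0.55 (adjusted p = 0.0363). All 3 receptors of the family had bulge cKO arrays above the WT arrays, and the first of them, Nr4a1, did not pass the test. Such a parting was seen for 8 of the 29 early response genes and for 10.5% of all genes. Without bulge WT replicate 1 the Nr4a2 difference was 0.35 (limma adjusted p = 0.0844). The Nr4a2 call was lost on the mean of its probe sets (0.39, limma adjusted p = 0.0542). It was also lost on its probe set with the largest interquartile range (0.60, adjusted p = 0.0953).

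Hbegf, a ligand of the EGF receptor, read 9.55, 9.83, 9.85 and 9.23 in bulge cKO and 7.95, 8.83 and 8.93 in bulge WT, a log2 difference of 1.05 (limma adjusted p = 0.0258). Arc, known from neurons as an activity-induced gene, read 6.20, 8.55, 8.33 and 7.58 in bulge cKO and 6.02, 5.54 and 5.63 in bulge WT. Its cKO arrays spread widely, with replicate 1 close to WT, and the difference was 1.93 (adjusted p = 0.0365). Csrnp1, a nuclear protein of the early response, differed by 0.72 (adjusted p = 0.0462) with overlapping groups, and it is named as the last of the 5 after its values were seen. Without bulge WT replicate 1 only Nr4a3 of the 5 was still called (1.04, adjusted p = 0.0147), and without cKO replicates 2 and 3 of both compartments none was.

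Of 15 known AP-1 targets, 2 rose in bulge cKO and none fell, against 1.98% of all genes called higher and 1.85% lower. Tnfaip3, which restrains NF-kB signalling, read 8.66, 9.94, 9.81 and 8.99 in bulge cKO and 7.74, 7.70 and 8.25 in bulge WT, a log2 difference of 1.45 (limma adjusted p = 0.0261). On the mean of its probe sets Tnfaip3 missed the threshold (1.11, adjusted p = 0.0608). Sprr1a, a precursor of the cornified envelope that is also among the differentiation markers, read 9.03, 10.74, 10.51 and 9.79 in bulge cKO and 8.43, 8.16 and 8.88 in bulge WT, a difference of 1.53 (adjusted p = 0.0373). Both were highest on cKO replicates 2 and 3, the arrays with the highest differentiation marker means. Of the 8 genes of these and the following lists that were called in bulge cKO beside Nr4a3, each lost its call without bulge cKO replicate 2, bulge cKO replicate 3, bulge WT replicate 1 or bulge WT replicate 2. Arc also lost it without bulge WT replicate 3, and Csrnp1 without bulge cKO replicate 1.

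**Figure D5:**
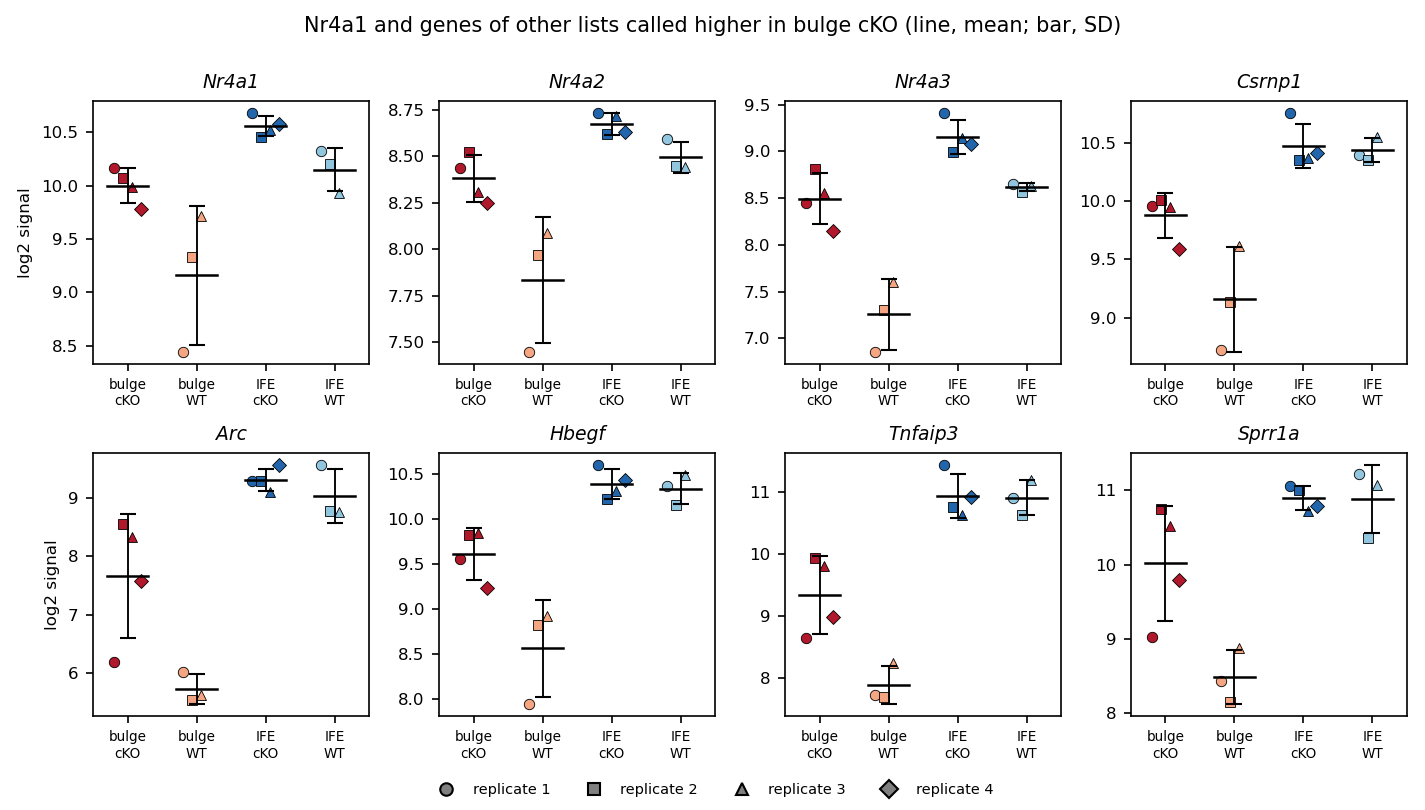
Log2 signal on each array of Nr4a1 and of 7 early response or AP-1 target genes called higher in bulge cKO, with the mean (line) and SD (bar) of 4 cKO or 3 WT arrays; each panel has its own vertical scale. In every panel the IFE means lie above the bulge means, and the Arc, Tnfaip3 and Sprr1a points of bulge cKO spread widely between replicates.

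The upstream and partner genes gave few calls in bulge cKO, where 1.85% of all genes were called lower. Atf7, a relative of CREB, was the 1 of 13 AP-1 partners called, with a log2 difference of -0.33 (limma adjusted p = 0.0192). On its probe set with the largest interquartile range Atf7 differed by -0.06 and was not called (adjusted p = 0.648). Mrtfa, the coactivator that brings actin signals to SRF, was the 1 of 14 upstream genes called, with -0.58 (adjusted p = 0.0462). Mrtfa read 9.22, 8.79, 8.95 and 9.38 in bulge cKO and 9.75, 9.82 and 9.44 in bulge WT. None of 12 feedback genes was called, a list that holds the DUSP phosphatases and the Sprouty proteins.

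In the IFE, where 0.175% of all genes were called lower, these lists gave 1 call, Mmp3, a matrix protease among the AP-1 targets. It read 6.74, 6.28, 6.37 and 7.10 in IFE cKO and 8.57, 7.61 and 8.52 in IFE WT. The groups did not overlap, and the log2 difference was -1.61 (limma adjusted p = 0.0173). The call was lost when IFE cKO replicate 2 or 3 or IFE WT replicate 1 or 3 was left out. Nr4a3 had IFE cKO arrays of 9.41, 8.995, 9.14 and 9.08 above IFE WT arrays of 8.57 to 8.65 without passing the test (0.54, adjusted p = 0.256).

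Set between the compartments of WT mice, the wider early response and the AP-1 targets were mostly lower in the bulge. Of the 29 early response genes 17 were called lower in bulge than in IFE and 2 higher, with a list median of -0.66. Among all genes 16.6% were called lower and 18.4% higher, with a median of -0.01. Plk2, a kinase of the cell cycle (-2.77), and Hbegf (-1.77) were among the lower ones, as was Nr4a3 (-1.36), while Cebpd (1.04) and Sgk1 (0.65) were higher. The Cebpd call was lost without bulge WT replicate 3 or IFE WT replicate 1 or 3. Of the 15 AP-1 targets 11 were lower and none higher, with a median of -1.75, among them Tnfaip3 (-3.02), Mmp3 (-2.70) and Sprr1a (-2.39). Of the 13 AP-1 partners 5 were lower, including Fosl1 (-2.14), which encodes FRA1, and Atf4 (-0.86), and Atf7 was higher (0.59).

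The genes above and below the early response in WT were divided between directions. The counts below stand against 16.6% of all genes called lower in the bulge and 18.4% called higher. Of 14 upstream genes 3 were lower in the bulge, Srf (-1.18), Map2k4 (-1.27) and Map2k1 (-0.52), and 4 were higher, including Mrtfa (1.03), Egfr (0.55) and Creb1 (0.45). The Egfr call was lost without IFE WT replicate 1. Of 12 feedback genes 5 were lower, including Errfi1 (-1.77) and Nab1 (-0.89), and 4 were higher, including Spry4 (0.81). Nab1 encodes a corepressor of EGR proteins. Of 11 heat shock genes 4 were lower, including Hspa5 (-0.86) and Dnaja1 (-0.77), and Hspb1 was higher (0.46).

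In cKO mice the same lists gave fewer calls between the compartments for AP-1 targets, of which 3 of 15 were lower in the bulge. Of the 29 early response genes 15 were lower and 1 higher, with a median of -0.31. Among all genes 14.6% were called lower and 17.6% higher, with a median of 0.03. Whether the compartments differ less in cKO is the test of the difference of effects, which called none of the genes of these lists. Its estimates were above 0 for all 15 AP-1 targets, with a median of 1.37, against 0.02 over all genes. Without cKO replicates 2 and 3 of both compartments that median was 0.66. For the early response genes 23 of 29 were above 0, with a median of 0.27. The lists were not tested as sets.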

How the data were processed

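Per the labels, amplified cDNA was run on Affymetrix arrays. The authors deposited log2 signals per probe set made with RMA, per the submitters' processing notes, with no version given in the sources used here. RMA quantile-scales arrays against each other, so a shift shared by most genes would not be seen. Of 45141 probe sets, 28898 had 1 symbol, 551 several and 15692 none; 28689 symbols came from the reference and 209 from the platform annotation. Each gene took its probe set with the highest mean over 14 arrays.

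One model with a mean per group was fitted to all arrays and 17097 genes in R 4.3.3 with limma 3.58.1 (lmFit, then eBayes with no trend; 10 residual degrees of freedom). Tests were two-sided, with Benjamini-Hochberg adjusted p under 0.05 over all genes and no fold minimum, for 5 comparisons. The fit was tested on simulated data. Figures used matplotlib 3.10.9.

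The members and the 15 lists (180 entries, 166 measured) were chosen with earlier results of these data known. Named were the members, up to 4 called genes a list and direction, and the 8 genes most like the members and the 3 most like Fos among genes above the median signal. The lists not described in the report, of basal IFE, melanocyte and endothelial markers, gave 2 of 8 lower, 0 of 6 and 1 of 6 higher in bulge cKO. There 1.85% of all genes were called lower and 1.98% higher.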

Additional observations from a re-analysis of the deposited data

Results flagged for a closer look

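Examined were the members, the called list genes kept for naming, and Jund, Dusp1 and Rhob, each in bulge cKO and in IFE cKO. Among these 112 sets of 4 arrays, 10 had 1 array far from the other 3, with a gap of over 0.8 of the whole range. Chance gives about 1 in 20. None of the sets so flagged was of a member. The WT groups were not examined, so the low bulge WT replicate 1 and IFE WT replicate 3 could not be flagged. Values below are log2 signals, and no cause was tested.

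In bulge cKO, replicate 4 was low for Fosl1 at 9.34 against 9.88 to 9.97 (gap 0.850 of the range), for Atf4 at 9.21 against 9.40 to 9.42 (0.877) and for Csrnp1 at 9.59 against 9.95 to 10.01 (0.848). Replicate 2 of bulge cKO was high for Egr4 at 4.95 against 4.80 to 4.82 (0.840) and low for Creb1 at 8.37 against 8.67 to 8.73 (0.842).

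In IFE cKO, replicate 1 was high for Dusp4 at 5.70 against 5.46 to 5.49 (0.882) and for Csrnp1 at 10.76 against 10.36 to 10.41 (0.860). Replicate 4 was high for Nab1 at 10.52 against 10.20 to 10.22 (0.929) and for Plau, the urokinase gene, at 8.04 against 7.44 to 7.47 (0.951). Replicate 3 was low for Creb1 at 8.18 against 8.34 to 8.36 (0.909).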

How the results depend on the processing

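The number of the 10 genes called in bulge cKO against WT, 1 with all arrays, was 2 with an intensity trend and robust fitting, 6 with array weights, and 0 without cKO replicates 2 and 3 of both compartments or with only the groups compared; leaving out single arrays gave 0 to 2. Over all genes that comparison called 656, and 8242 with array weights, 412 with a replicate block, 80 without cKO replicates 2 and 3 and 72 with only the groups compared (single arrays left out, 116 to 2553). The estimation of array weights stopped before it converged. For cKO against WT in the IFE, 85 genes were called, and under the same 4 alternatives 1458, 33, 41 and 48 (single arrays left out, 38 to 107). For the difference of effects 18 were called, against 6 with dim genes removed, 4974 with array weights, where 1 of the 10 genes passed, 2 with the replicate block and 3 without cKO replicates 2 and 3 (single arrays left out, 3 to 240). Between bulge and IFE in WT, 2 of the 10 were called, 1 with only the groups compared and 2 to 3 with single arrays left out. In cKO, 1 was called, 3 with arrays centred on their median, 2 with dim genes removed, 4 with array weights and 4 with only the groups compared. All genes called there were 5496, and 10318 with array weights. The cause of these changes was not tested, other than fewer arrays or genes where they were left out. With a replicate block the Egr2 difference in bulge was 1.11 (limma adjusted p = 0.0428) and no call among the 10 changed; of the 9 genes named from the early response, AP-1 and upstream lists in bulge cKO, all but Nr4a3 and Hbegf missed the threshold (adjusted p of 0.0507 to 0.0718). Bulge and IFE arrays of equal number had deviations that correlated by -0.57 to 0.15 in cKO and 0.04 to 0.25 in WT. Between cKO and WT arrays of equal number the correlations were -0.62 to 0.18. So few arrays cannot decide whether equal numbers mark a pair. Mrtfb, an SRF coactivator called higher in bulge than in IFE in WT (0.12), read -0.16 (adjusted p = 0.159) on its probe set with the largest interquartile range.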
